A study of Mus musculus with 15 samples.

Results

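Mouse embryonic stem (ES) cells kept in their full medium, with 2 kinase inhibitors and the cytokine LIF, were compared with cells from which LIF and one of the inhibitors had been removed for a day. The arrays were chosen by their sample titles: 2iLIF replicates 1 to 3 against PD03 replicates 1 to 3, which are 6 of the 15 arrays of the series, and every one of the 19937 genes that could be named was compared. The 2iLIF cells (n = 3) were in long-term culture with 3 µM CHIR99021, 1 µM PD0325901 and LIF. The PD03 cells (n = 3) had 1 µM PD0325901 alone for the last 24 h before RNA extraction. PD0325901 was therefore present in both groups, and the labelled difference between them is the removal of LIF and CHIR99021 together. The 2iLIF cells also had no withdrawal step, and that cannot be told apart from this removal. The remaining arrays were used where they help to read this difference. The 2i cells (n = 3) kept both inhibitors and lost LIF for 24 h, the CHIR cells (n = 3) kept CHIR99021 alone, and the DMSO cells (n = 3) kept none of the 3 agents. All groups were of 1 ES cell line, adapted to culture with both inhibitors, in which the Ctnnb1 locus encodes beta-catenin with a biotin and 3xFLAG tag and which also carries the biotin ligase BirA. The values therefore describe 1 tagged line. The labels do not say whether the replicates were separate cultures, and p-values then cover the spread of these arrays alone, which may be technical.

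CHIR99021 inhibits GSK3, a kinase that marks beta-catenin for degradation, so that beta-catenin accumulates and acts with the TCF and LEF factors on Wnt target genes. LIF binds a receptor of LIFR and gp130 and activates JAK kinases and the transcription factor STAT3, which induces genes such as Klf4 and the feedback inhibitor Socs3. PD0325901 blocks MEK and so the activation of ERK, and ERK signalling is known to move ES cells from the naive state towards the formative state of the post-implantation epiblast. GSK3 inhibition, MEK inhibition and LIF are each known to favour naive self-renewal, and any pair of them can maintain mouse ES cells.

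One target gene of each withdrawn signal is shown by the bases just before its start, because Socs3 and Sp5 were called in the comparison and each holds a motif of its pathway there. The sequences are from RefSeq (GRCm38.p6), run 5′ to 3′ on the strand of the gene and cover the 250 bases before the annotated start. Capitals mark the match to TTCNNNGAA, the STAT motif, in Socs3 (chr11:117969367-117969616, minus strand, 154 bases before the start) and to CTTTGAT, a core TCF/LEF motif, in Sp5 (chr2:70474673-70474922, plus strand, 104 bases before the start).
Socs3: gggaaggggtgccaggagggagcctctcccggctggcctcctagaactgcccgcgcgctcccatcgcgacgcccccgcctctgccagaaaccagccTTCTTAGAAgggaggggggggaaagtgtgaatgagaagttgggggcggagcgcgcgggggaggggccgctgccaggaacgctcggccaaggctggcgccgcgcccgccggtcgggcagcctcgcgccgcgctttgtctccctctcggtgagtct
Sp5: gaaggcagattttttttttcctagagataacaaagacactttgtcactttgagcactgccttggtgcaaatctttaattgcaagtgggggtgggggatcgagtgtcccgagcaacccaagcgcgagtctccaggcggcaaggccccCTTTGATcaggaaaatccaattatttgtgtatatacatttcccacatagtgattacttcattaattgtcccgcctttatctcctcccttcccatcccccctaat
Both strands were searched. Of 32851 windows of this length, 7.02% held TTCNNNGAA and 3.21% held CTTTGAT. A match is a description of the letters and does not show that a factor binds there.

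Values are log2 RMA signals, in which a difference of 1 is 2-fold. Differences are given as 2iLIF minus PD03 with the limma standard error (SE), and a gene is called when its limma adjusted p (Benjamini-Hochberg over all genes, two-sided) is under 0.05. The words rose and fell are used of called genes and describe 2iLIF against PD03. The labelled cell type was borne out by its markers: Pou5f1 (Oct4) read 12.51 ± 0.04 (SD, n = 3) in 2iLIF and 12.52 ± 0.02 (n = 3) in PD03, Sox2 read 11.53 ± 0.01 and 11.57 ± 0.03, and Nanog read 12.72 ± 0.04 and 12.56 ± 0.03. Of 17 fibroblast and feeder cell genes, 0 were called by limma and 0 had an unadjusted p under 0.05. Means under 6 were found for 6 of them in each group, and the mean over the list ran from 6.35 to 6.46 on the 2iLIF arrays and from 6.38 to 6.45 on the PD03 arrays. Array medians over the series lay between 6.98 and 7.06. No detection calls were used, so means under 6, and some a little above 6, may be background, and the differences that rest on them may then be too small.

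Between 2iLIF and PD03, 6324 genes (31.7% of those tested) were called, 3080 higher (15.4%) and 3244 lower (16.3%). With each array centred on its median instead, which adds 0.0566 to every difference, 4511 were higher and 2299 lower, so the balance of small differences depends on the scaling. The 3 arrays of one group lay beyond the 3 of the other for 42% of all genes (20.4% higher, 21.5% lower). A called difference of 2-fold or more was found for 190 genes (0.953%), 101 higher (0.507%) and 89 lower (0.446%). The median difference over all genes was -0.0032. The genes furthest apart were Plagl1, a zinc finger factor encoded at an imprinted locus, which was 7.94-fold higher in 2iLIF, and Otx2, a homeobox factor of the formative epiblast, which was 8.11-fold lower. The arrays measured bulk RNA, so a change in the share of cells with a transcript and a change in RNA per cell cannot be told apart.

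**Figure D1:**
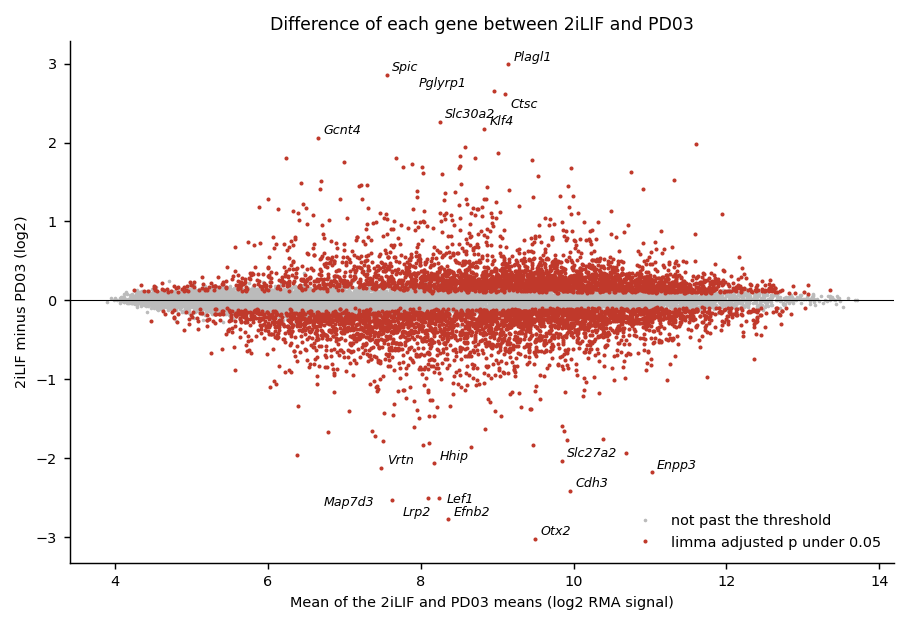
Difference of each gene between 2iLIF and PD03 (vertical axis, log2) against the mean of both group means (horizontal axis, log2 RMA signal), with called genes in red and the genes of the naming rule that differ by over 2 on the log2 scale labelled. Plagl1 stands highest at 2.99 and Otx2 lowest at -3.02, while most called genes lie close to 0.

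Plagl1 read 10.62, 10.66 and 10.62 on the 2iLIF arrays and 7.64, 7.71 and 7.59 on the PD03 arrays. It rose by 2.99 ± 0.10 (adjusted p = 8.04e-12), and every 2iLIF array was well above every PD03 array. Spic, an ETS-family factor, read 8.82, 9.10 and 9.02 in 2iLIF against 6.03, 6.14 and 6.21 in PD03, a rise of 2.86 ± 0.10. The other genes of the 15 that rose most were Pglyrp1 (2.65), a peptidoglycan recognition protein, Ctsc (2.62), the lysosomal protease cathepsin C, the zinc transporter Slc30a2 (2.26), Klf4 (2.17), the glycosyltransferase Gcnt4 (2.06), Trh (1.98), the precursor of thyrotropin-releasing hormone, the guidance ligand Slit2 (1.94), Bcl3 (1.87), Rerg (1.83), a small GTPase, Cttnbp2 (1.81), Serpinb1a (1.81), the repressor Bhlhe40 (1.80) and the T-box factor Tbx3 (1.77). The PD03 means of Gcnt4 (5.63) and Serpinb1a (5.33) were under 6, and that of Spic (6.13) was little above it.

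Otx2 read 7.85, 8.12 and 7.98 in 2iLIF against 11.00, 10.97 and 11.04 in PD03 and fell by 3.02 ± 0.06 on the log2 scale (adjusted p = 4.84e-14). Its DMSO mean was 11.58 ± 0.07 (n = 3), so the PD03 arrays lay far closer to the cells without any agent than to the full medium. Efnb2, an ephrin ligand, was next at -2.77 ± 0.09. The other genes of the 15 that fell most were Map7d3 (-2.53), a microtubule-binding protein, the endocytic receptor Lrp2 (-2.50), Lef1 (-2.50), P-cadherin Cdh3 (-2.42), the ectonucleotidase Enpp3 (-2.18), Vrtn (-2.12), the Hedgehog-binding protein Hhip (-2.06), the fatty acid transporter Slc27a2 (-2.04), Tmem154 (-1.96), Dnmt3l (-1.94), the forkhead factor Foxi3 (-1.85), Dnmt3a (-1.83) and the retinoic acid binding protein Crabp2 (-1.83). The 2iLIF mean of Tmem154 (5.40) was under 6, and its other probe set gave -1.27. The 2iLIF means of Map7d3 (6.36) and Vrtn (6.42) were little above 6. Adjusted p was at most 1.47e-09 for the named genes at both ends, and in each of them the 3 arrays of one group lay beyond the 3 of the other, which the naming rule required.

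Because 2iLIF and PD03 differ by 2 agents, the contribution of each cannot be told apart from these 6 arrays. The 2i arrays, which have CHIR99021 but no LIF, divide each difference exactly into a LIF step (2iLIF minus 2i) and a CHIR99021 step (2i minus PD03). Both steps use the same 2i arrays, so an error in 2i raises one and lowers the other, and each holds for this order of removal alone: the LIF step was measured with CHIR99021 present and the CHIR99021 step without LIF. The 2iLIF cells were also the only ones labelled as long-term culture with no withdrawal, and that cannot be told apart from LIF. The LIF step called 2437 genes (12.2%), 910 higher (4.56%) and 1527 lower (7.66%). With centred arrays these were 1162 and 983. The CHIR99021 step called 3891 genes (19.5%), 2008 higher (10.1%) and 1883 lower (9.44%), and 2307 and 1470 with centred arrays. A direct test of the LIF step against the CHIR99021 step called 1308 genes (6.56%), 560 with the higher value in the LIF step (2.81%) and 748 in the CHIR99021 step (3.75%). Both counts go by signed value and not by size, so Otx2, which fell more in the CHIR99021 step, is among the 560. The count of 1308 became 859 without 2i replicate 1, 833 without 2i replicate 2 and 912 without 2i replicate 3.

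**Figure D2:**
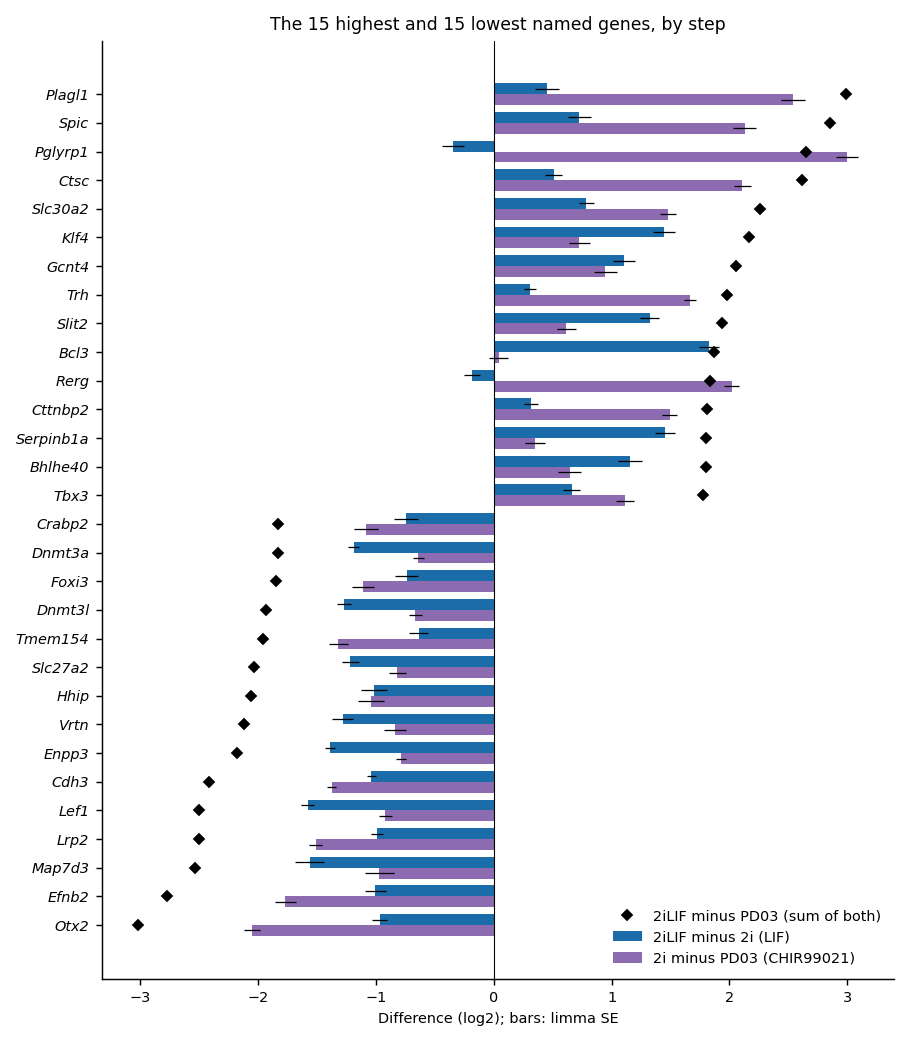
The LIF step (blue) and the CHIR99021 step (purple) of the 15 named genes that rose most and the 15 that fell most, as log2 differences with the limma SE, and their sum, 2iLIF minus PD03 (black diamonds). Bcl3 has nearly all of its difference in the LIF step (1.83 of 1.87) and Plagl1 most of it in the CHIR99021 step (2.54 of 2.99), while the 15 that fell have both steps below 0.

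Among the genes that rose most, the steps were unequal in both directions. Plagl1 had a CHIR99021 step of 2.54 ± 0.10 and a LIF step of 0.45 ± 0.10, and the direct test of the steps gave an adjusted p of 2.06e-06. The CHIR99021 step was also the larger for Spic (2.13 against 0.73), Ctsc (2.11 against 0.51), Trh (1.67 against 0.31) and Cttnbp2 (1.49 against 0.31), each called by the direct test. The LIF step was the larger for Bcl3 (1.83 against 0.04), Serpinb1a (1.46 against 0.35), Slit2 (1.33 against 0.62) and Klf4 (1.45 against 0.73), again called by the direct test. Gcnt4 (1.11 and 0.95) and Bhlhe40 (1.16 and 0.64) were not called by it.

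The 15 genes that fell most had both steps called and negative. Otx2 had the larger fall in the CHIR99021 step (-2.05 ± 0.06 against -0.97 ± 0.06, adjusted p of the direct test 1.4e-05), as did Lrp2 (-1.51 against -0.99). Lef1 had the larger fall in the LIF step (-1.58 ± 0.05 against -0.92 ± 0.05, adjusted p = 3.09e-04), as did Enpp3 (-1.39 against -0.79), Dnmt3l (-1.27 against -0.67) and Dnmt3a (-1.19 against -0.64). Hhip had nearly equal steps (-1.02 and -1.04). Its PD03 mean of 9.21 ± 0.08 stood above its DMSO mean of 7.69 ± 0.25 (n = 3 each), so that PD03 lay outside the range from 2iLIF to DMSO.

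On the LIF arm, the feedback inhibitor Socs3 read 8.92, 9.08 and 8.999 in 2iLIF, 7.55, 7.23 and 7.29 in 2i, and 7.60, 7.72 and 7.61 in PD03. It rose by 1.36 ± 0.08 (adjusted p = 1.64e-09), and the 3 arrays with LIF stood apart from all others, the DMSO arrays (7.72, 7.89 and 7.70) included. Its LIF step was 1.64 ± 0.08 and its CHIR99021 step -0.28 ± 0.08 (adjusted p = 0.0151). A second probe set of Socs3 gave only 0.145, with means of 6.73 in 2iLIF and 6.59 in PD03, so the size rests on the brighter set. Bcl3, an atypical IκB protein, read 10.03, 9.98 and 9.81 in 2iLIF, and 8.11, 8.09 and 8.02 in PD03. Its 2i arrays (8.11, 8.11 and 8.13) read nearly the same as PD03, so the 3 arrays with LIF again stood alone.

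Counts of list members here and below are to be read beside the shares over all genes. These were 15.4% higher and 16.3% lower in 2iLIF minus PD03. In the LIF step they were 4.56% and 7.66%, and in the CHIR99021 step 10.1% and 9.44%. Of 28 LIF/STAT3 target genes measured, 13 rose and 4 fell, with a median of 0.08. After Klf4 and Bcl3 the largest rises were in Tfcp2l1 (1.53 ± 0.05), a naive transcription factor, and Socs3. Stat3 itself read 10.47, 10.40 and 10.30 in 2iLIF against 9.64, 9.60 and 9.64 in PD03, a rise of 0.76 ± 0.05 that lay in the LIF step (0.71 ± 0.05). In the LIF step 12 of the list were higher and 1 lower, and in the CHIR99021 step 4 were higher and 4 lower. The 4 that fell were the kinase gene Pim2 (-0.79), Lifr (-0.19), Cebpd (-0.20) and Tgif1 (-0.12), and 2 fell with centred arrays or without 2iLIF replicate 3. They were named after their values were seen, as were the genes below that are not among those of the naming rule.

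Of 18 receptor and signalling components measured, 2 rose and 7 fell (median -0.07), and 1 rose without 2iLIF replicate 3, PD03 replicate 1 or PD03 replicate 3. Il6st, which encodes gp130, rose by 0.47 ± 0.05, and most of it came with the CHIR99021 step (0.40 against 0.06 for LIF, adjusted p of the direct test 0.0276). The other riser was Osmr (0.15). Stat4 fell by 0.83 ± 0.05 and Pias3, an inhibitor of STAT3, by 0.53 ± 0.04. The fall of Pias3 lay in the CHIR99021 step (-0.61), and its LIF step of 0.07 was not called (limma adjusted p = 0.347). The LIF gene itself, Lif, was at -0.25.

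**Figure D3:**
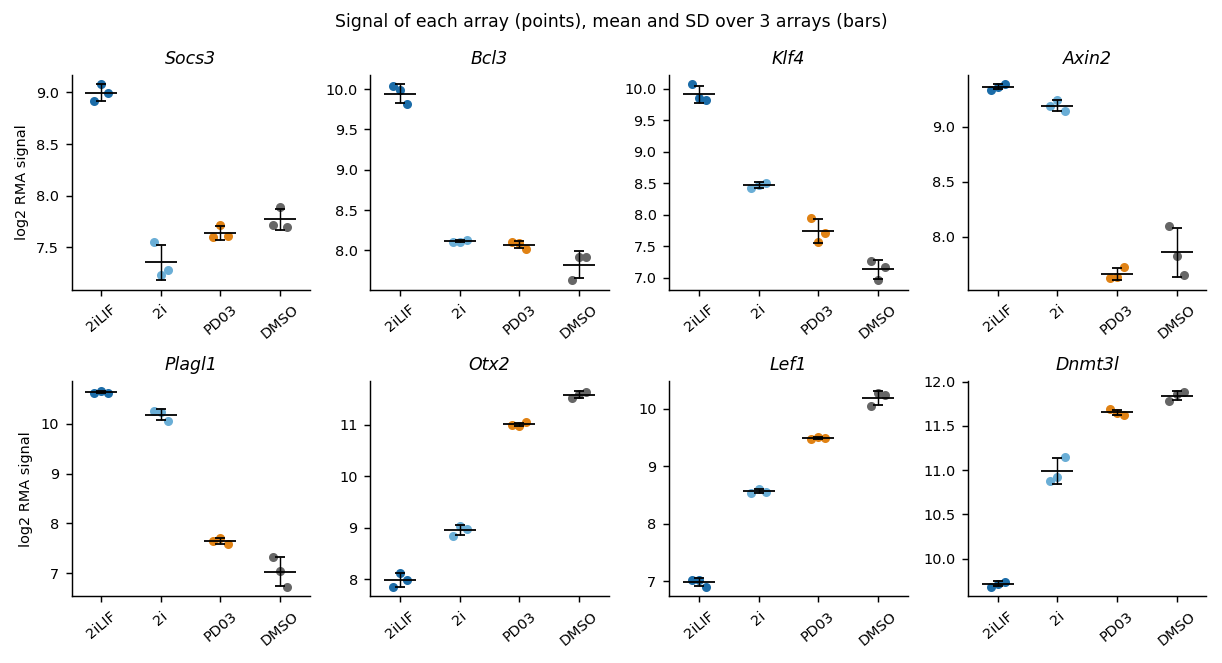
Log2 RMA signal of each array (points) with the mean and SD of 3 arrays (bars) for 8 genes in 2iLIF, 2i, PD03 and DMSO, on a separate vertical axis per gene. Socs3 and Bcl3 are high on the 2iLIF arrays alone, Axin2 and Plagl1 on the 2iLIF and 2i arrays, Klf4 declines from 2iLIF to DMSO, and Otx2, Lef1 and Dnmt3l climb from 2iLIF to DMSO.

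On the CHIR99021 arm, the feedback inhibitor Axin2 read 9.34, 9.36 and 9.38 in 2iLIF, and 7.63, 7.63 and 7.72 in PD03. It rose by 1.70 ± 0.08 (adjusted p = 1.75e-10), and the 2i arrays (9.18, 9.24 and 9.14) lay just under those of 2iLIF. The CHIR99021 step was 1.53 ± 0.08 and the LIF step 0.17 ± 0.08, which was not called (adjusted p = 0.208). The PD03 arrays overlapped the DMSO arrays (8.10, 7.83 and 7.65). Sp5, a zinc finger repressor induced by Wnt signalling, read 7.78, 7.72 and 7.68 against 6.99, 7.06 and 6.85, a rise of 0.76 ± 0.07 with both steps called (LIF 0.45, CHIR99021 0.31). The steps of Sp5 were not called different (limma adjusted p of the direct test 0.672), so its rise was not particular to CHIR99021.

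The Wnt/beta-catenin targets moved in both directions: of 22 measured, 5 rose and 3 fell, with a median of 0.01, beside 15.4% higher and 16.3% lower over all genes. Without 2iLIF replicate 1, and likewise with array weights, 5 fell. Besides Axin2 and Sp5, the TNF receptor family gene Tnfrsf19 rose by 0.63 ± 0.04, the caudal factor Cdx1 by 0.54, and Notum, a Wnt-inactivating enzyme, by 0.17. The 3 that fell were Lef1, Lgr4 (-0.51) and Ccnd1 (-0.27). Lef1, a partner of beta-catenin and an epiblast marker, read 7.03, 7.03 and 6.91 in 2iLIF, 8.54, 8.61 and 8.56 in 2i, 9.47, 9.51 and 9.48 in PD03, and 10.06, 10.28 and 10.24 in DMSO. It thus ran opposite to Axin2, with the arrays of each group clear of the next.

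Beta-catenin and its partners mostly differed by little. Ctnnb1 read 11.89, 11.93 and 11.92 in 2iLIF against 12.01, 12.05 and 12.03 in PD03, a difference of -0.12 ± 0.03 (adjusted p = 7.84e-03). The call was lost with centred arrays (-0.06, adjusted p = 0.218). Of 22 genes of the destruction complex and its partners, 1 rose and 10 fell (median -0.10), and with centred arrays 4 fell. The largest was Tcf7l1 (TCF3), the TCF that represses naive genes, which read 10.09, 10.03 and 10.10 in 2iLIF against 10.96, 10.93 and 10.88 in PD03 and fell by 0.85 ± 0.04. Its DMSO mean was 10.50. Tcf7l2 (-0.31), the coactivator Bcl9 (-0.28) and the kinase gene Csnk1e (-0.22) followed, and the gene that rose was Pygo2 (0.15), whose call was lost without 2iLIF replicate 1 or 2 or PD03 replicate 1 or 3. Of 31 Wnt ligands and receptors, 4 rose and 4 fell, which is no more than the shares over all genes (15.4% higher, 16.3% lower). The receptors Fzd2 (-0.94), Fzd7 (-0.86) and Fzd3 (-0.44) and the coreceptor Lrp6 (-0.17) were lower in 2iLIF. The receptors Fzd10 (0.89) and Fzd5 (0.29), the acyltransferase Porcn (0.34) and Wnt5b (0.31) were higher.

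The naive pluripotency genes were higher in 2iLIF. Of 19 measured, 15 rose and 2 fell, with a median of 0.48. In the LIF step 10 were higher and 1 lower, and in the CHIR99021 step 9 were higher and 3 lower. Klf4 read 10.07, 9.85 and 9.82 in 2iLIF against 7.95, 7.57 and 7.71 in PD03, a rise of 2.17 ± 0.09 (adjusted p = 6.32e-11), with the 2i arrays between them at 8.42, 8.47 and 8.51. Tbx3 read 10.41, 10.32 and 10.28 against 8.48, 8.62 and 8.59, a rise of 1.77 ± 0.07. Tfcp2l1 read 12.12, 12.13 and 11.98 against 10.54, 10.60 and 10.51, with nearly equal steps (LIF 0.73, CHIR99021 0.80, adjusted p of the direct test 0.781). None of these genes overlapped between the groups, which the naming rule required of Klf4 and Tbx3 and which held for 42% of all genes. Tcl1, a coactivator of AKT, rose by 0.95 ± 0.07, and Prdm14, a repressor of epiblast genes, by 0.77 ± 0.05.

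Nanog and Klf2 differed by little. Nanog read 12.72, 12.76 and 12.68 in 2iLIF and 12.56, 12.54 and 12.60 in PD03, a difference of 0.15 ± 0.04 (adjusted p = 0.0143) that was not called without 2iLIF replicate 2 (adjusted p = 0.0686) or without PD03 replicate 2 (adjusted p = 0.0569). Klf2 rose by 0.18 ± 0.04, from 9.93 ± 0.03 in PD03 to 10.10 ± 0.02 in 2iLIF, while DMSO stood at 8.73 ± 0.05 (n = 3 each). For both genes the PD03 arrays lay much nearer to 2iLIF than to DMSO, where Nanog read 11.86, 11.71 and 11.67. The 2 naive genes that fell were Fgf4 (-0.59), the growth factor that activates ERK in these cells, and Nr0b1 (-0.14), and 1 fell without 2iLIF replicate 3 or PD03 replicate 1.

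The general pluripotency genes showed the opposite balance, with 1 of 14 higher, 8 lower and a median of -0.18. Lin28a, an RNA-binding protein that blocks let-7 maturation, fell by 0.46 ± 0.06, Utf1 by 0.41 ± 0.04 and Dppa4 by 0.32, and Tdgf1, a coreceptor of Nodal, rose by 0.28. Pou5f1 (-0.01 ± 0.03, adjusted p = 0.919) and Sox2 (-0.04 ± 0.04, adjusted p = 0.559) were not called, and the sign of both turned positive with centred arrays.

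The formative and primed epiblast genes were mostly lower in 2iLIF. Of 21 measured, 13 fell and 2 rose, with a median of -0.39. In the LIF step 11 were lower and 1 higher, and in the CHIR99021 step 11 were lower and 3 higher. Otx2, Lef1 and the DNA methyltransferase genes led the list. Fgf5, a classical marker of the formative state, read a mean of 7.12 ± 0.01 in 2iLIF, 7.50 ± 0.05 in PD03 and 8.74 ± 0.40 in DMSO (n = 3 each), a difference of -0.39 ± 0.14 (adjusted p = 0.042). Its call was lost with centred arrays and when any 1 of the 6 arrays was left out, with adjusted p from 0.0593 to 0.119. The 2 members that rose were Etv4, which is described with the ERK genes, and the homeobox gene Nkx1-2 (0.84).

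Of 14 genes of the DNA methylation machinery measured, 3 rose and 5 fell (median -0.10). The de novo methyltransferase Dnmt3a read 8.52, 8.60 and 8.54 in 2iLIF against 10.37, 10.37 and 10.40 in PD03 and fell by 1.83 ± 0.05. Dnmt3b read 9.48, 9.49 and 9.55 against 11.33, 11.20 and 11.28 and fell by 1.76 ± 0.06. Their cofactor Dnmt3l read 9.68, 9.72 and 9.74 against 11.69, 11.65 and 11.62 and fell by 1.94 ± 0.06. All 3 had a larger fall in the LIF step than in the CHIR99021 step (adjusted p of the direct test 3.78e-04, 0.0248 and 1.06e-03). Their DMSO means (11.12, 11.87 and 11.84) were higher still than those of PD03. The maintenance genes Dnmt1 (-0.08) and Uhrf1 (0.03) were not called. Among the dioxygenase genes that oxidise methylated cytosine, Tet2 rose (0.25) while Tet3 (-0.50) and Tet1 (-0.32) fell, and with an intensity trend in the fit 8 of the list fell.

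MEK inhibition was shared by both groups, and the ERK response genes told them apart only in part. Of 26 measured, 6 rose and 5 fell, with a median of 0.00. Dusp6, an ERK phosphatase that is itself induced by ERK signalling, read 9.34, 9.49 and 9.61 in 2iLIF against 9.40, 9.32 and 9.30 in PD03, with 11.11, 11.03 and 11.04 in DMSO. The groups overlapped, and the difference of 0.14 ± 0.06 was not called (adjusted p = 0.0752), although it was without 2iLIF replicate 1 (0.21), with centred arrays (0.20), with an intensity trend and with array weights. Dusp4 likewise read 7.01 ± 0.03 and 7.11 ± 0.06 against 9.28 ± 0.11 in DMSO (n = 3 each).

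Some feedback genes were nevertheless higher with LIF and CHIR99021. Spry4, an inhibitor of the pathway upstream of ERK, read 9.11, 9.09 and 8.95 in 2iLIF against 8.33, 8.18 and 8.09 in PD03, a rise of 0.85 ± 0.09 (adjusted p = 2.41e-06). The ETS factor Etv4 read 8.16, 7.99 and 8.15 against 7.34, 7.35 and 7.25, a rise of 0.79 ± 0.08. Both still lay under their DMSO arrays (10.17, 10.16 and 10.27 for Spry4, and 9.30, 9.42 and 9.49 for Etv4). The receptor gene Epha4 rose by 0.97 ± 0.04, most of it in the LIF step (0.73 against 0.24, adjusted p of the direct test 8.39e-05), and its order was reversed, with DMSO lowest at 8.55. Dusp1 rose by 0.59 and Dusp5 fell by 0.56.

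**Figure D4:**
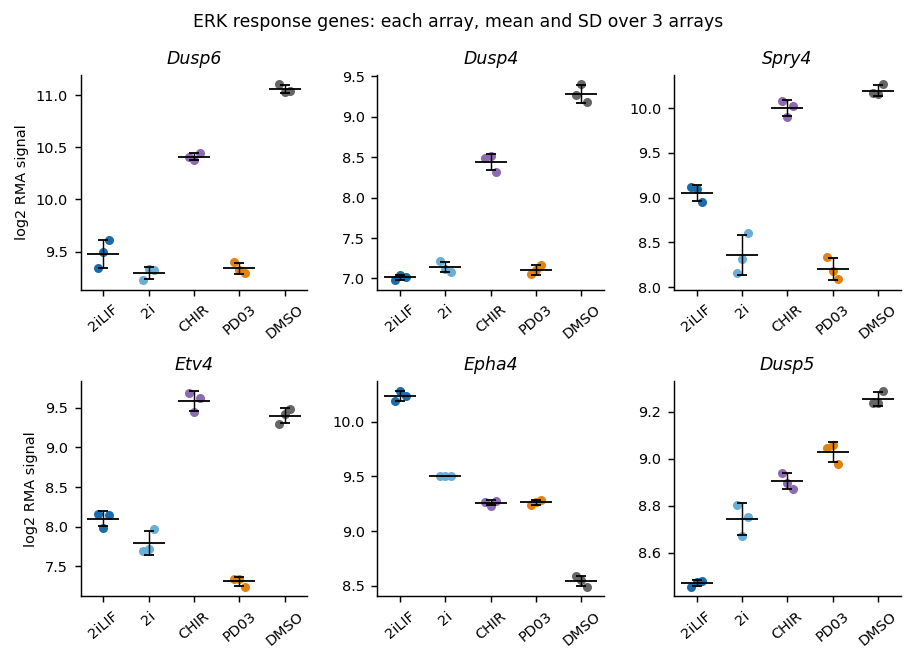
Log2 RMA signal of each array (points) with the mean and SD of 3 arrays (bars) for 6 ERK response genes in the 5 groups, on a separate vertical axis per gene. For Dusp6, Dusp4, Spry4 and Etv4 the 3 groups with PD0325901 (2iLIF, 2i and PD03) lie under CHIR and DMSO; Spry4 and Etv4 are higher in 2iLIF than in PD03, and Epha4 is highest in 2iLIF.

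For some genes the steps ran in opposite directions, so that 2iLIF minus PD03 was smaller than the larger step or close to 0. Pglyrp1 had a CHIR99021 step of 3.00 ± 0.10 and a LIF step of -0.35 ± 0.10 (adjusted p = 0.0237). The axon guidance gene Ntn1 rose by 1.69 and the dynein gene Dnah8 by 1.37, each with a called negative LIF step. Gmnc, a regulator of multiciliated cells, read 6.52, 6.76 and 6.67 in 2iLIF, 7.51, 7.60 and 7.54 in 2i, and 5.28, 5.27 and 5.54 in PD03, which is near background. Its LIF step was -0.90 ± 0.08 and its CHIR99021 step 2.19 ± 0.08, and its highest mean was in the CHIR group (9.19).

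The net difference of Ccnd2, which encodes cyclin D2, was small although both of its steps were called. It read 8.25, 8.01 and 8.29 in 2iLIF, 9.12, 9.23 and 9.61 in 2i, and 8.06, 8.16 and 8.05 in PD03. The difference between 2iLIF and PD03 was 0.09 ± 0.11 (adjusted p = 0.595), while the LIF step was -1.14 ± 0.11 and the CHIR99021 step 1.23 ± 0.11 (adjusted p of the direct test 8.19e-07). Porcn, which acylates Wnt proteins for secretion, had a LIF step of -0.90 ± 0.04 and a CHIR99021 step of 1.24 ± 0.04, leaving 0.34. Tnfrsf19 had -0.77 and 1.41, leaving 0.63, and Uhrf2 had -0.80 and 0.61, leaving -0.18. The junction gene Cldn7 ran the other way, with a LIF step of 0.53 and a CHIR99021 step of -0.58, leaving -0.04. Ccnd2, Uhrf2, Porcn and Cldn7 were singled out after their values were seen.

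Among markers of other lineages, single genes stood out. Of 19 primitive streak and mesoderm genes 3 rose and 0 fell in limma's test (0 fell at an unadjusted p under 0.05), with a median of 0.02. Over all genes 15.4% rose and 16.3% fell. Eomes, a T-box factor, read 9.57, 9.60 and 9.58 in 2iLIF against 8.16, 8.10 and 8.19 in PD03 and rose by 1.43 ± 0.10, beside Cdx1 and Gsc (0.15). The call of Gsc was lost without 2iLIF replicate 3 or PD03 replicate 2. Mesp1 (6.21 and 6.20), Mixl1 (6.76 and 6.64) and Foxa2 (7.40 and 7.41) were not called, and with centred arrays 6 of the list rose. The mean over the list ran from 6.84 to 6.96 on the 2iLIF arrays and from 6.74 to 6.79 on the PD03 arrays.

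Of 14 trophoblast genes 5 rose and 1 fell (median 0.00), and 2 fell without 2iLIF replicate 1. Tfap2c, an AP2 factor also expressed in naive cells, read 8.74, 8.90 and 8.86 against 7.32, 7.11 and 7.21 and rose by 1.62 ± 0.08. Eomes, which is on this list too and is itself a trophoblast factor, was next (1.43), before Tead4 (0.79), Tfap2a (0.39) and Gata2 (0.32). Other defining trophoblast markers, Cdx2 (5.91 and 5.90), Elf5 (5.63 and 5.63) and Gata3 (5.99 and 5.97), had means under 6 in both groups, while the mean over the list ran from 7.42 to 7.49 on the 2iLIF arrays and from 7.13 to 7.19 on the PD03 arrays. Of 21 extra-embryonic endoderm genes 2 rose and 6 fell (median -0.03). Lama1, a laminin chain of basement membrane, read 8.94, 8.99 and 8.90 against 7.70, 7.66 and 7.66 and rose by 1.27 ± 0.05, nearly all of it in the LIF step (1.19 ± 0.05), while Gata6 (6.18 and 6.22), Sox17 (6.15 and 6.18) and Gata4 (7.80 and 7.76) were not called. Krt8 rose by 0.33 and its partner Krt18 fell by 0.25. The mean over the endoderm list was 7.53 to 7.60 on the 2iLIF arrays and 7.53 to 7.59 on the PD03 arrays.

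Of 17 neural genes 3 rose and 5 fell (median -0.09), beside 15.4% higher and 16.3% lower over all genes. Pax6 read 6.54, 6.55 and 6.52 in 2iLIF against 8.19, 8.22 and 8.16 in PD03 and fell by 1.65 ± 0.05, and the PD03 arrays stood above the DMSO arrays (7.80, 7.81 and 7.67). Its CHIR99021 step was -1.12 and its LIF step -0.53. The adhesion gene Ncam1 (-0.59), Sox11 (-0.54), Nes (-0.53), an intermediate filament gene, and Tubb3 (-0.33) also fell. The 3 members that rose did so by at most 0.29. Sox1 was not called (8.08 and 8.24), and the mean over the list ran from 7.13 to 7.20 on the 2iLIF arrays and from 7.35 to 7.36 on the PD03 arrays. Of 18 germ line genes 2 rose and 4 fell, which is near the shares over all genes, and 1 rose without PD03 replicate 2. The largest differences among them were in Mael (-1.16) and Dazl (0.48). Of 5 measured 2-cell-stage genes 1 rose, Eif1a (0.42), with means of 10.61 in 2iLIF and 10.19 in PD03. The other 4 had means under 6 in both groups. What part cells of other lineages have in any of these differences was not tested.

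Genes of the TGF-beta family responses split within their own families. Of 18 Nodal and BMP response genes 8 rose and 6 fell (median 0.04). The Nodal antagonists Lefty1 and Lefty2 moved in opposite directions: Lefty2 read 9.89, 9.93 and 9.77 in 2iLIF against 8.44, 8.39 and 8.55 in PD03 (1.40 ± 0.07), and Lefty1 read 9.63, 9.75 and 9.69 against 10.21, 10.30 and 10.41 (-0.62 ± 0.13, adjusted p = 1.42e-03). Both lay far above DMSO, where Lefty2 had a mean of 5.56 and Lefty1 of 6.41. They are close copies of each other, and how far their probe sets cross-hybridise was not tested. The BMP target genes Id2 and Id3 were also opposed, Id2 falling by 1.35 ± 0.10 and Id3 rising by 1.04 ± 0.10, each with its called step in CHIR99021 (-1.47 and 0.81). The SMAD corepressor Skil fell by 0.82.

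Of 21 epithelial junction and mesenchymal genes 10 fell and 2 rose (median -0.13). The splicing factor Esrp1 fell by 1.16 ± 0.04, the claudin Cldn6 by 0.80, the epithelial factor Grhl2 by 0.79 and Epcam by 0.77. Vim (0.24) and Krt8 were the 2 that rose, and with centred arrays 4 rose. Of 17 imprinted genes 10 fell and 3 rose (median -0.27), so that Plagl1 ran against most of its list. Peg3 read 10.71, 10.71 and 10.70 in 2iLIF against 11.72, 11.73 and 11.72 in PD03 and fell by 1.01 ± 0.03. The neuronal proteolipid gene Nnat fell by 1.06 and the noncoding RNA Meg3 by 0.66, the latter wholly in the CHIR99021 step (-0.67 against 0.00). Phlda2 (0.33) and Impact (0.22) rose.

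Of 16 cholesterol synthesis genes 14 fell and 0 rose in limma's test (0 at an unadjusted p under 0.05), with a median of -0.26 and a range from -0.63 to -0.06. Centring the arrays adds 0.0566 to each of these differences and so makes the falls smaller. Hmgcs1, the synthase at the entry of the pathway, read 11.36, 11.39 and 11.43 in 2iLIF against 11.90, 11.85 and 11.94 in PD03 (-0.50 ± 0.04), with 2i at 11.37, 11.45 and 11.43. Lanosterol synthase Lss (-0.63), squalene epoxidase Sqle (-0.53) and the regulator Srebf2 (-0.39) also fell. In the CHIR99021 step 15 of the 16 were lower, and in the LIF step 3 were.

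Of 23 respiratory chain subunits 19 rose and 0 fell in limma's test (0 at an unadjusted p under 0.05), with a median of 0.16. Ndufa1 rose by 0.37 ± 0.07, Ndufa4 by 0.35 ± 0.06, Atp5o by 0.29 ± 0.04 and Sdhb by 0.26 ± 0.04. In the CHIR99021 step 13 were higher and in the LIF step 2. Of 20 ribosome biogenesis genes 10 rose and 0 fell in limma's test (0 at an unadjusted p under 0.05; median 0.11), among them Wdr12 (0.30), the nucleolar GTPase Gnl3 (0.30), Nop2 (0.24) and Nop16 (0.21). All 10 calls in its steps belonged to CHIR99021 (10 higher), with 0 in the LIF step by limma (2 at an unadjusted p under 0.05). These differences are under 1.3-fold, and the shift between scalings (0.0566) is a sizeable part of them. Centring the arrays adds it to each difference and so makes these rises larger.

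Of 17 lysosome and TFEB family genes 13 rose and 1 fell (median 0.30). Hexa, a subunit of beta-hexosaminidase, read 9.56, 9.61 and 9.63 in 2iLIF against 8.50, 8.43 and 8.49 in PD03 and rose by 1.13 ± 0.06. The transcription factor Mitf rose by 0.78 (0.50 in its second probe set), Lamp2 by 0.61 and cathepsin B, Ctsb, by 0.54. The exception was Tfe3 (-0.31), a factor of the same family. In the LIF step 9 were higher and 1 lower, and in the CHIR99021 step 7 were higher and 1 lower.

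Among the remaining lists, the stress response, cell cycle and BCL2 family genes were called mostly lower, and the others were mixed. Over all genes 15.4% were higher and 16.3% lower. Of 17 glycolysis genes 4 rose and 4 fell, among them the regulator Pfkfb3 (0.58) and the lactate transporter Slc16a3 (-0.64), and of 15 glycogen genes 2 rose and 4 fell, among them the kinase subunit Phka1 (-0.58) and glycogen synthase Gys1 (-0.45). Of 20 integrated stress response and serine synthesis genes 10 fell and 2 rose (median -0.10), led by Chac1 (-0.69), which degrades glutathione, followed by the mTORC1 inhibitor Ddit4 (-0.50) and the cystine transporter Slc7a11 (-0.50). Of 24 cell cycle genes 9 fell and 2 rose (median -0.08), led by Mycn (-0.66), and 1 rose without 2iLIF replicate 2. Of 14 BCL2 family genes 5 fell and 1 rose: the pro-apoptotic Bmf read 8.50, 8.19 and 8.23 against 9.05, 9.19 and 9.25 (-0.86 ± 0.07), Bcl2l11 (BIM) fell by 0.69, and Bid rose by 0.50. With centred arrays 2 of that list fell, 3 fell without 2iLIF replicate 2, and 2 rose without 2iLIF replicate 3. Of 16 p53 targets 4 rose and 6 fell, led by Perp (0.76), and 2 rose without 2iLIF replicate 2.

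**Figure D5:**
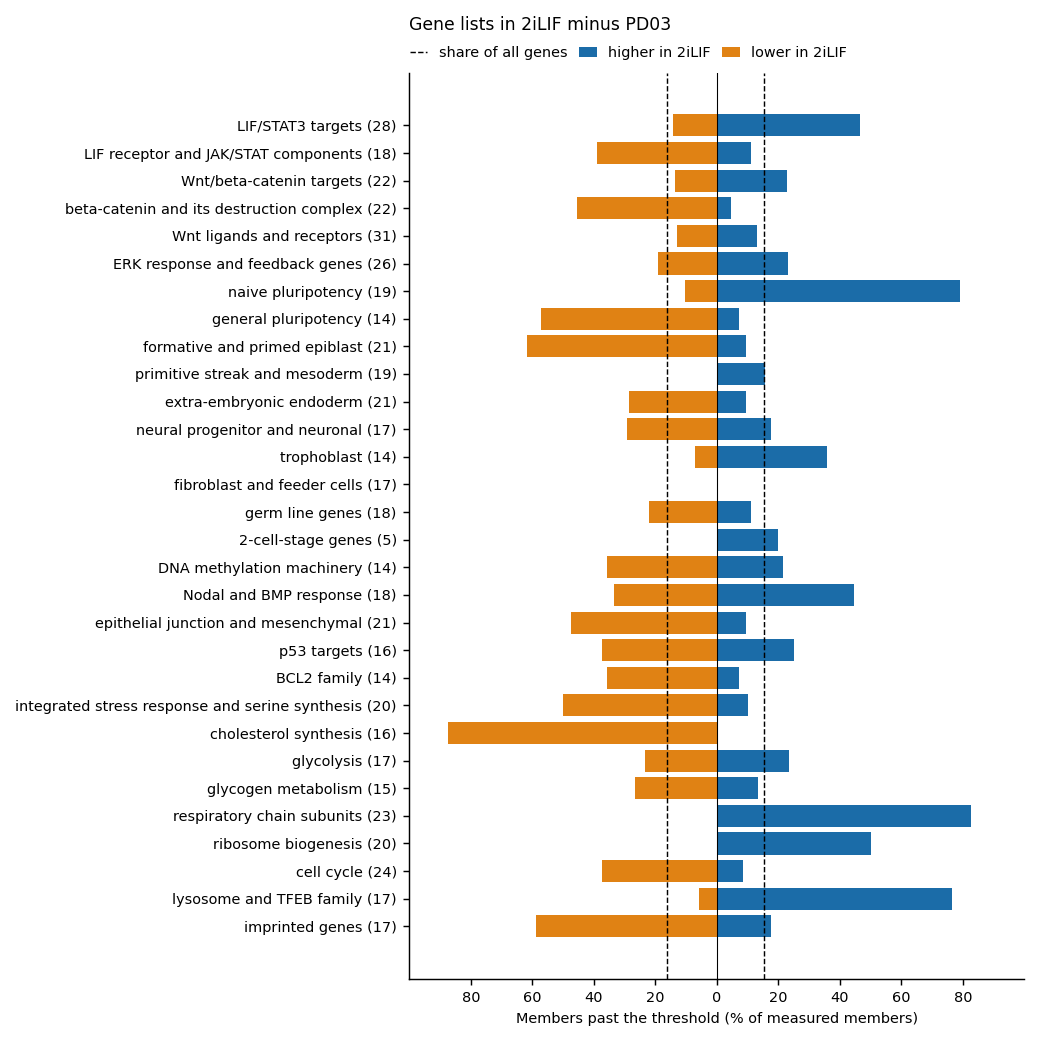
Share of the measured members of each gene list described above (number in brackets) that were called higher (blue, to the right) or lower (orange, to the left) in 2iLIF minus PD03, in percent. The dashed lines mark the shares over all genes, 15.4% higher and 16.3% lower. Naive pluripotency, respiratory chain and lysosome genes reach furthest to the right, cholesterol synthesis, formative epiblast and imprinted genes furthest to the left, and fibroblast genes have no call.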

How the data were processed

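Total RNA was hybridised to 15 Affymetrix arrays, with 3 arrays for each of 5 groups. The deposited values are log2 signals per probe set, made by the authors with RMA per the submitters' processing notes. Its version and the genome build are not given in the sources used here. RMA as usually run makes array distributions alike, so a shift shared by most genes would be hidden, and it compresses differences of weak genes.

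Values of 34760 probe sets ranged from 3.74 to 13.99. The platform annotation gave exactly 1 gene symbol to 21640 sets and several to 1321, and 11799 are unnamed here. Of the 21640, 21553 matched RefSeq by gene identifier. For each gene the set with the highest mean over 15 arrays was used (954 genes had more than 1), which left 19937 genes. No level filter was applied, and 0 value columns were left unused.

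Using limma 3.58.1 in R 4.3.3 (lmFit and eBayes), 1 model with 5 groups was fitted over the 15 arrays, with 10 residual and 5.09 prior degrees of freedom. The arrays per group limit the precision: the median SE of a difference was 0.0509. The procedure was tested on simulated data.

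The named genes are the 15 highest and 15 lowest called genes without overlap between the groups (predicted genes left out), up to 4 called members per list with the largest difference, 5 genes per step, 3 with opposed steps, and a short list taken whatever its result. The comparison, the lists and this rule were chosen with earlier results of these data known. Some genes stand on more than 1 list, 1 list is not reported here, and not every gene of the rule is named. Alternatives covered the arrays fitted, a replicate block, a filter, the choice of probe set, the prior, centring, array weights, a minimum fold and each array left out.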

Additional observations from a re-analysis of the deposited data

How the results depend on the processing

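Of 145 named genes, 142 were called, and 137 of these kept their sign and call under those of 13 alternatives that included them. The 2-fold minimum and the fit of all probe sets were not among these 13. Serpinb1a (mean of 5.76 over all arrays) and Tex11 (5.32) were left out by the filter for a mean of at least 6. The difference of Pou5f1 turned to 0.0496 with centred arrays and ran from -0.0281 to 0.0135 with 1 array left out, positive without 2iLIF replicate 3, and that of Sox2 turned to 0.0148 with centred arrays. A 2-fold minimum left 190 genes in 2iLIF minus PD03 (101 higher, 89 lower), 42 in the LIF step (26 and 16), 63 in the CHIR99021 step (44 and 19) and 102 in the difference of the steps (42 and 60), which follows from its construction. With centred arrays the LIF step had 983 lower genes. With 1 array left out, 5429 to 6369 genes were called in 2iLIF minus PD03 (higher 2556 to 3216, lower 2827 to 3153), 1898 to 2336 in the LIF step (666 to 1029 and 1182 to 1321), 3099 to 3297 in the CHIR99021 step (1559 to 1695 and 1527 to 1650) and 833 to 1258 in the difference of the steps (380 to 542 and 453 to 725). The lowest values of the last were those without a 2i array. They were 859 without replicate 1 (466 lower), 833 without replicate 2 (453 lower) and 912 without replicate 3 (511 lower). The 2i arrays enter both steps, and whether more than the smaller number of arrays lay behind these values was not tested. With the replicate number as a block, 6160 genes were called in 2iLIF minus PD03 (2987 higher, 3173 lower), 2348 in the LIF step, 3756 in the CHIR99021 step and 1200 in the difference of the steps. Same-numbered arrays did not deviate together in a regular way, with correlations of -0.302, -0.147 and 0.107 between 2iLIF and PD03. They were 0.341, 0.125 and -0.149 between 2iLIF and 2i, and -0.231, -0.205 and -0.139 between PD03 and 2i. Differently numbered arrays of 2iLIF and 2i reached -0.432 and 0.373, so the numbers were not taken as pairs. Other settings gave 6061 to 7527 genes in 2iLIF minus PD03, and of 806 counts of list members under an alternative 36 moved by over 1.5 times. Signal near background limits the size of differences for genes with a mean under 6.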
